A study of Homo sapiens with 2 samples.

Results

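The squamous differentiation transcription factors examined here were the 9 genes GRHL1, GRHL2, GRHL3, OVOL1, KLF4, ZNF750, ELF3, EHF and PRDM1, taken by symbol from the 40392 Entrez genes of the deposited tables. All 9 had a row in both tables, and 7 had a value above 0. The study sequenced total RNA of KYSE30, an established esophageal squamous cell carcinoma line. The RHCG library came from cells that stably carried an expression vector for human RHCG, an ammonia and ammonium transporter that normal esophageal epithelium makes. The mock library came from cells that stably carried the vector pIRES2-EGFP. Both groups share the KYSE30 background, and the labels do not say whether either line was 1 clone or a pool. Each group was a single library, so no replicate spread exists, no test was made, and every difference is one between these 2 libraries.

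A stratified squamous epithelium renews itself from basal cells that stop dividing, move upward and switch on genes of the barrier. The 9 factors act in that switch. The grainyhead-like factors GRHL1, GRHL2 and GRHL3 bind a shared site next to genes of cell junctions and the cornified envelope. KLF4, a Krüppel-like zinc-finger factor, and ZNF750, a zinc-finger protein that is often mutated in esophageal squamous carcinoma, turn on late genes in human keratinocytes. OVOL1 and PRDM1 are repressors, and OVOL1 helps epidermal cells leave the progenitor state in the mouse. ELF3 and EHF are ETS-domain factors found mainly in epithelia.

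The promoters of the 3 factors with the highest ratios, GRHL1, EHF and KLF4, and of the most abundant factor, ELF3, are shown because their CG content differs widely. Sequences are from RefSeq (GRCh38.p14) and run from 250 bases before the gene start to 50 bases from it; for EHF the first of its 2 starts in the table is given. They lie at chr2:9951443-9951742 (plus strand), chr11:34624007-34624306 (plus), chr9:107489720-107490019 (minus) and chr1:202010337-202010636 (plus). Capitals mark matches on either strand to the CCAAT box, to the TATA motif TATAA, to an ETS core with the letters AGGAAG, and to an E-box with the letters CACCTG.
GRHL1: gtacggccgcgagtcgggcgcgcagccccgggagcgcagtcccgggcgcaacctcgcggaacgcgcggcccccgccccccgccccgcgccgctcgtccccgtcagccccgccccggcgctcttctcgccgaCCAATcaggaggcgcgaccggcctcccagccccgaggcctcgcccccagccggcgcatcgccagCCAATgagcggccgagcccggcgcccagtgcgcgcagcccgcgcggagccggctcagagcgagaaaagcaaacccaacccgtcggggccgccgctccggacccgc
EHF: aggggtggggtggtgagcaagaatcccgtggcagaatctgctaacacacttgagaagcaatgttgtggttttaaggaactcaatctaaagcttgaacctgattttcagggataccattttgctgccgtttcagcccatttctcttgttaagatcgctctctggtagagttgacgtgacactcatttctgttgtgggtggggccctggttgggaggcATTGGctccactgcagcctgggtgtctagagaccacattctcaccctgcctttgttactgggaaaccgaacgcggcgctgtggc
KLF4: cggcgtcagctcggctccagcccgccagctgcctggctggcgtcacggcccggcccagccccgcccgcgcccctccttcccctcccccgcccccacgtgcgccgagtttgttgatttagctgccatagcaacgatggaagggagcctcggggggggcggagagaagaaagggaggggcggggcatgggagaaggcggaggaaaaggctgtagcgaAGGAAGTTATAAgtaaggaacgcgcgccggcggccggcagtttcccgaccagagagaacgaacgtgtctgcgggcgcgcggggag
ELF3: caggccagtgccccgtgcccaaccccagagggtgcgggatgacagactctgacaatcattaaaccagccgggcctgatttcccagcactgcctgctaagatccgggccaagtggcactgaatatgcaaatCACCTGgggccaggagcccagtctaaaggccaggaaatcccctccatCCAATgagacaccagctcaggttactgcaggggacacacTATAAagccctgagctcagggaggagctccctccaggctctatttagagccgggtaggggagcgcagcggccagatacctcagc

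Promoter results from RefSeq sequences are reported for 6 of the 9 factors (GRHL1, GRHL3, KLF4, ELF3, EHF and PRDM1). The GRHL1 promoter held 52 CG dinucleotides at 79.7% G and C, and 0.780% of the 35116 promoters of this length held as many or more. The KLF4 promoter held 33 at 69.0%. The EHF promoter held 8 at 51.3% and the ELF3 promoter 7 at 59.0%, against medians of 14 and 58.7% over all promoters. The count of 8 in EHF lay between the quartiles of all promoters, 4 and 28, and that of GRHL1 above them. GRHL1 had 2 matches to CCAAT, EHF and ELF3 had 1 each and KLF4 had 0, and 34.6% of all promoters held this motif. ELF3 had 1 match to TATAA, and KLF4 had 2, which overlap because the motif was read on both strands; 20.4% of all promoters held it. In KLF4 the ETS core directly adjoins the TATA motif, and 33.6% of promoters held AGGAAG. The ELF3 promoter also had 1 match to CACCTG (20.6% of promoters). The grainyhead motif AACNGGTT matched in 0 of the 9 promoter windows of these 6 genes, and 1.73% of all promoters held it. The Krüppel-like motif GGGNGTGG matched only in GRHL3 and PRDM1 windows, and 17.2% of all promoters held it. The AP-1 motif TGANTCA matched only in a PRDM1 window (7.71% of promoters).

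Levels are given as RPKM, reads per kilobase of transcript scaled to depth, which allows different genes to be set side by side. The deposited scaling corresponded to about 22100000 reads in the RHCG library and about 18900000 in the mock library. A value listed at 0 can mean 1 RPKM or less, no reads or a gene that was not counted, since HSPH1 and GLUL, which most cells express, were also at 0 in each library. RHCG itself was at 413 RPKM in the RHCG library, whose label names the RHCG vector, and listed at 0 in the mock library. Intervals are 95% exact counting intervals from approximate read numbers and cover counting error only. A log2 ratio is RHCG over mock with 1 RPKM added to each value, and a ratio of 1 or more is called higher and of −1 or less lower.

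Among the 9 factors 1 was called higher, GRHL1, and 0 were called lower. Of the 12857 genes measured, that is listed above 0 in at least 1 library, 2.74% were called higher and 3.30% lower. Of the 7 measured factors 4 lay above 0 and 3 below, with a median log2 ratio of 0.26, against −0.01 over all measured genes. GRHL1, EHF and KLF4 had the 3 highest ratios, and GRHL2 had the lowest. The count of 1 rests on GRHL1 alone, which no longer passed once the shift of its chromosome neighbours was removed.

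**Figure D1:**
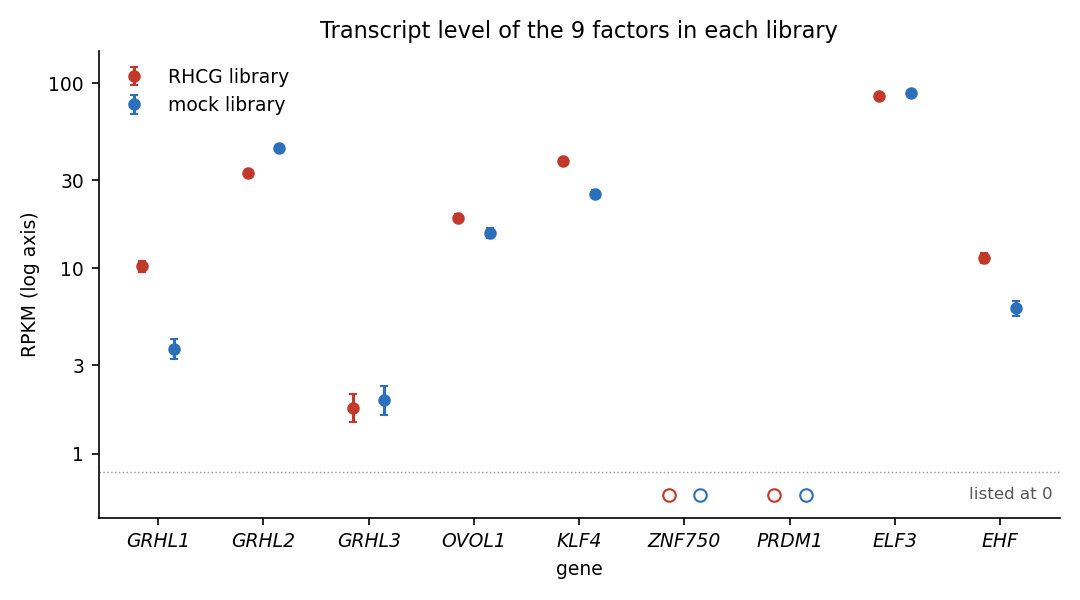
RPKM on a log axis for the 9 factors in the RHCG library (left point of each gene) and the mock library (right point), with bars for approximate 95% counting intervals. Open circles under the dotted line are genes listed at 0; GRHL1 is at 10.3 and 3.67 RPKM, and ZNF750 and PRDM1 are at 0 in both libraries.

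GRHL1 (Entrez gene 29841, chromosome 2), which activates the desmosomal cadherin gene DSG1 in keratinocytes, was at 10.3 RPKM in the RHCG library (interval 9.57 to 11.0) and 3.67 RPKM in the mock library (3.23 to 4.15). The intervals did not overlap. The plain ratio was 2.79 (2.42 to 3.23), from about 820 and 251 reads, and the log2 ratio was 1.27. Of all measured genes 1.15% had a ratio as high. By level it ranked 5709 of 10968 protein-coding genes listed in the RHCG library and 8793 of 11201 in the mock library.

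GRHL2 (Entrez gene 79977, chromosome 8), which maintains the adherens and tight junction genes CDH1 and CLDN4 in mouse epithelia, was at 32.7 RPKM in the RHCG library (31.7 to 33.7) and 45.0 RPKM in the mock library (43.7 to 46.3). The level was lower in the RHCG library, with a plain ratio of 0.726 (0.696 to 0.759) and a log2 ratio of −0.45 that did not pass the rule. GRHL3 (Entrez gene 57822, chromosome 1), which activates transglutaminase 1 and is needed for the skin barrier in the mouse, was at 1.77 RPKM in the RHCG library (1.48 to 2.10) and 1.95 RPKM in the mock library (1.62 to 2.32). Its intervals overlapped, and its log2 ratio was −0.09. It rested on about 134 and 126 reads, and the interval of the plain ratio ran from 0.708 to 1.17, so a difference was not detectable at this depth. STPG1 overlaps GRHL3 in the annotation and was at 3.74 RPKM in the RHCG library and 2.51 in the mock library; whether reads were counted by strand is not given in the sources used.

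Of the 3 paralogs GRHL1 alone was called higher, and it made up more of the family sum in the RHCG library than in the mock library. GRHL1, GRHL2 and GRHL3 added up to 44.7 RPKM in the RHCG library and 50.6 RPKM in the mock library. GRHL1 made up 22.9% of that sum in the RHCG library and 7.25% in the mock library. GRHL2 made up 73.1% in the RHCG library and 88.9% in the mock library, and stayed the most abundant of the 3 in each. The level of GRHL2 was 3.19 times that of GRHL1 in the RHCG library and 12.3 times in the mock library. GRHL3 made up 3.96% and 3.85% in the RHCG and mock libraries.

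**Figure D2:**
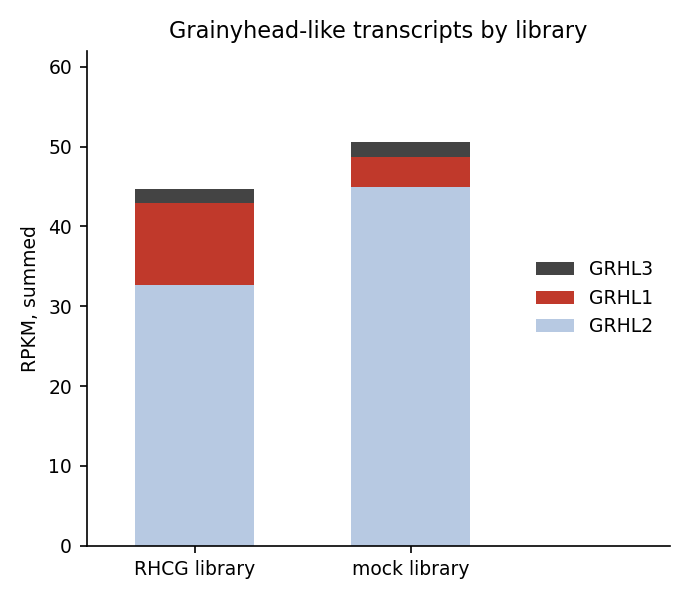
Stacked RPKM of GRHL2 (bottom), GRHL1 (middle) and GRHL3 (top) in the RHCG library (left bar) and the mock library (right bar). The sums are 44.7 and 50.6 RPKM, and the GRHL1 portion is 10.3 and 3.67 RPKM.

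KLF4 (Entrez gene 9314, chromosome 9), which is needed to form the skin barrier in the mouse, was at 38.2 RPKM in the RHCG library (36.7 to 39.7) and 25.2 RPKM in the mock library (23.9 to 26.6). The level was higher in the RHCG library by a plain ratio of 1.51 (1.42 to 1.62), and the log2 ratio of 0.58 did not pass the rule. OVOL1 (Entrez gene 5017, chromosome 11) was at 18.8 RPKM in the RHCG library (17.8 to 19.8) and 15.6 RPKM in the mock library (14.6 to 16.6). Its intervals did not overlap, its plain ratio was 1.21 (1.11 to 1.31) and its log2 ratio 0.26. The antisense gene OVOL1-AS1 was listed at 0 in each library.

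The ETS factors ELF3 and EHF differed in level and in ratio. ELF3 (Entrez gene 1999, chromosome 1) was the most abundant of the 9 in each library, at 85.8 RPKM in the RHCG library (84.3 to 87.4) and 88.5 RPKM in the mock library (86.8 to 90.2). These intervals overlapped. Its log2 ratio was −0.04 and its plain ratio 0.970 (0.944 to 0.996). It ranked 685 of 10968 protein-coding genes in the RHCG library and 678 of 11201 in the mock library. EHF (Entrez gene 26298, chromosome 11) was at 11.4 RPKM in the RHCG library (10.7 to 12.1) and 6.11 RPKM in the mock library (5.56 to 6.69). The intervals did not overlap, the plain ratio was 1.87 (1.67 to 2.09) and the log2 ratio was 0.80, short of the rule; 5.49% of measured genes had a ratio as high. The level of ELF3 was 7.52 times that of EHF in the RHCG library and 14.5 times in the mock library.

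ZNF750 (Entrez gene 79755, chromosome 17) and PRDM1 (Entrez gene 639, chromosome 6) were at 0 in each library. No ratio can be given for them and no bound on their expression.

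The order of levels was nearly shared by the libraries. In the RHCG library it ran ELF3, KLF4, GRHL2, OVOL1, EHF, GRHL1 and GRHL3, and in the mock library ELF3, GRHL2, KLF4, OVOL1, EHF, GRHL1 and GRHL3. KLF4 and GRHL2 stood in opposite order, and their intervals did not overlap within either library. EHF and GRHL1 had overlapping intervals in the RHCG library, 10.7 to 12.1 and 9.57 to 11.0 RPKM, but not in the mock library. The 7 measured factors added up to 199 RPKM in the RHCG library and 186 RPKM in the mock library.

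Each factor was then set beside the 25 nearest measured protein-coding genes on either side (fewer at a chromosome end). Around GRHL1, 31 of 45 neighbours lay above 0 and their median was 0.38, which leaves GRHL1 0.88 above them. Its next neighbours also had positive ratios. KLF11, a Krüppel-like factor, was at 11.9 RPKM in the RHCG library and 4.11 in the mock library (log2 ratio 1.33), and TAF1B, of the RNA polymerase I machinery, at 15.8 and 9.72 RPKM in the RHCG and mock libraries (0.65). In all, 2 of the 45 neighbours had a higher ratio than GRHL1.

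EHF and GRHL2 stood against their surroundings. The 50 neighbours of EHF had a median of −0.17, 6 of them were called lower, and 0 had a ratio as high as EHF, whose distance from the median was 0.97. Next to it, CAT, which encodes catalase, was at 9.56 RPKM in the RHCG library and 22.5 RPKM in the mock library (log2 ratio −1.16), and APIP at 1.87 and 2.11 RPKM in the RHCG and mock libraries (−0.11). The 50 neighbours of GRHL2 had a median of 0.14, and 46 of them had a higher ratio than GRHL2, which lay 0.59 below that median. KLF4 lay 0.45 above the median of its neighbours, 0.13, and 8 of 50 had a higher ratio. RAD23B, a DNA repair gene next to it, had a log2 ratio of 0.35. OVOL1 (0.09 above), GRHL3 (0.05 below) and ELF3 (0.09 below) stayed near theirs. The part of such regional shifts in the ratios of the factors was not tested.

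**Figure D3:**
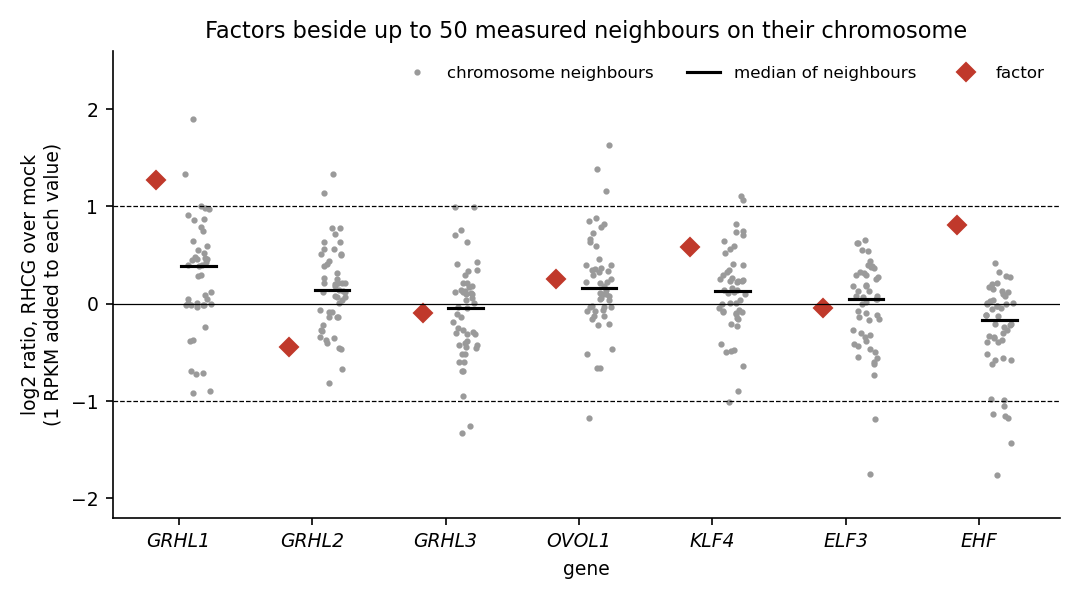
Log2 ratio of RHCG over mock, with 1 RPKM added, for the 7 measured factors (diamonds) and for up to 50 measured protein-coding neighbours on the same chromosome (grey points, median as a bar); dashed lines mark 1 and −1. EHF, at 0.80, is above all of its neighbours, and GRHL2, at −0.45, is below 46 of its 50.

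Other transcription factors of epidermis and squamous epithelium went both ways. Of 39 on the list 32 were measured, 3 were called higher and 1 lower, and their median was −0.04. CEBPG and CEBPB, of the C/EBP family of leucine-zipper factors, were at 73.1 RPKM in the RHCG library against 20.9 in the mock library (log2 ratio 1.76) and at 63.6 against 24.5 RPKM (1.34). FOSL1, a Fos-family subunit of AP-1, was at 89.6 RPKM in the RHCG library and 39.5 RPKM in the mock library (1.16). SOX2, a squamous lineage factor, was at 9.62 RPKM in the RHCG library and 23.1 RPKM in the mock library (−1.18).

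Some close relatives and known partners of the 9 factors are named here, picked after their values were seen. These gave values on both sides of 0, and none of those picked passed the rule. KLF11, the Krüppel-like factor next to GRHL1, did pass it (1.33). TP63, the master factor of squamous lineages, was at 14.4 RPKM in the RHCG library and 26.2 RPKM in the mock library (−0.82). KLF5, a Krüppel-like factor of proliferating layers, was at 29.9 RPKM in the RHCG library and 22.9 RPKM in the mock library (0.37). KLF3, another Krüppel-like factor, was at 18.1 RPKM in the RHCG library and 11.3 RPKM in the mock library (0.64). OVOL2, the paralog of OVOL1, had a log2 ratio of −0.07, and ELF5, an ETS paralog of ELF3 and EHF, was listed at 0 in each library. RIPK4, a kinase of keratinocyte differentiation, had a log2 ratio of −0.76.

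All 31 upstream regulators and cofactors were measured, with 14 above 0 and 17 below and a median of −0.11. Of these 1 was called lower and 0 higher. It was UHRF1, which maintains DNA methylation in dividing progenitor cells, at 17.3 RPKM in the RHCG library and 53.8 RPKM in the mock library (−1.58). The partners through which ZNF750 acts in keratinocytes, KDM1A, RCOR1, CTBP1 and CTBP2, had log2 ratios of −0.19, 0.01, −0.18 and 0.31.

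Genes described as direct targets of the 9 factors also went both ways. Of 25 such genes 19 were measured, 12 above 0 and 7 below, with a median of 0.13. The list does not separate genes that the factors activate from genes that they repress. Its signs and median therefore do not measure a response of the targets. CLDN3, a tight junction claudin, was called higher, at 4.73 RPKM in the RHCG library and 1.56 in the mock library (1.16); it was 0.85 with the neighbour shift removed. KRT13, the keratin of suprabasal cells in the esophagus, was called lower, at 164 RPKM in the RHCG library and 407 RPKM in the mock library (−1.31). Of the GRHL2 targets, CDH1 was at 84.7 and CLDN4 at 384 RPKM in the RHCG library, against 76.5 and 311 RPKM in the mock library, and neither passed the rule. DSG1, the GRHL1 target, was at 0 in each library. TGM1, the GRHL3 target, was at 1.19 RPKM in the RHCG library and listed at 0 in the mock library. Its log2 ratio, with that 0 set to 1 RPKM, was 0.13, which is also the median of the list.

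Of 63 terminal differentiation genes 30 were measured and 33 were at 0 in each library, among them FLG, LORICRIN, KRT1 and CRNN. The measured ones had a median of 0.05, with 16 above 0 and 14 below. RHCG is on this list and was called higher, and KRT13 and ECM1 were called lower. ECM1, an extracellular matrix protein of differentiating layers, was at 3.67 RPKM in the RHCG library and 8.76 RPKM in the mock library (−1.06, and −0.91 with the neighbour shift removed). Of 11 mesenchymal genes 7 were measured, 2 above 0 and 5 below, with a median of −0.62. VIM, the intermediate filament of mesenchymal cells, was at 4.11 RPKM in the RHCG library and 18.7 RPKM in the mock library (−1.95). SNAI2, a repressor of epithelial genes, was at 6.98 RPKM in the RHCG library and 15.9 RPKM in the mock library (−1.08). FN1, the most abundant measured gene of this list in each library, went the other way. It was at 41.0 RPKM in the RHCG library and 24.4 RPKM in the mock library (0.73), short of the rule. ZEB1 and ZEB2, repressors that GRHL2 and OVOL factors oppose, were at 0 in each library.

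Markers of the basal layer and of other cell types were read from the same libraries. Of 18 basal keratinocyte genes 17 were measured, 9 above 0 and 8 below, with a median of 0.03. The unmeasured one was KRT5, a basal keratin, listed at 0 in each library. KRT15, also a basal keratin, was at 27.3 RPKM in the RHCG library and 101 RPKM in the mock library (−1.85), and SOX2 was the other one called lower. None was called higher. The highest ratio of this list was that of EGFR, at 907 RPKM in the RHCG library and 543 RPKM in the mock library (0.74). Of 12 simple columnar markers 3 were measured, 1 above 0 and 2 below, with a median of −0.39 (−0.07 with the neighbour shift removed). KRT18, a simple keratin, was at 2194 RPKM in the RHCG library and 1810 RPKM in the mock library (0.28). KRT8, its partner keratin, was at 1680 RPKM in the RHCG library and 2197 RPKM in the mock library (−0.39). KRT19, another simple keratin and the 1 called lower, was at 855 RPKM in the RHCG library and 1766 RPKM in the mock library (−1.05, and −0.98 with the neighbour shift removed). The defining columnar genes CDX2, VIL1 and MUC2 were at 0. Of 12 fibroblast markers 3 were measured and summed to 6.90 RPKM in the RHCG library and 8.97 in the mock library, with FBLN1 at 5.47 and 6.52 RPKM and COL1A1 at 1.44 and 1.19 RPKM in the RHCG and mock libraries. PDGFRA, PECAM1 and PTPRC, which define fibroblasts, endothelium and leukocytes, were at 0 in both. EGFL7 was the sole endothelial marker measured of 10, at 17.2 RPKM in the RHCG library and 16.7 in the mock library, and CD68 the sole leukocyte marker of 13, at 8.89 and 15.4 RPKM in the RHCG and mock libraries.

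**Figure D4:**
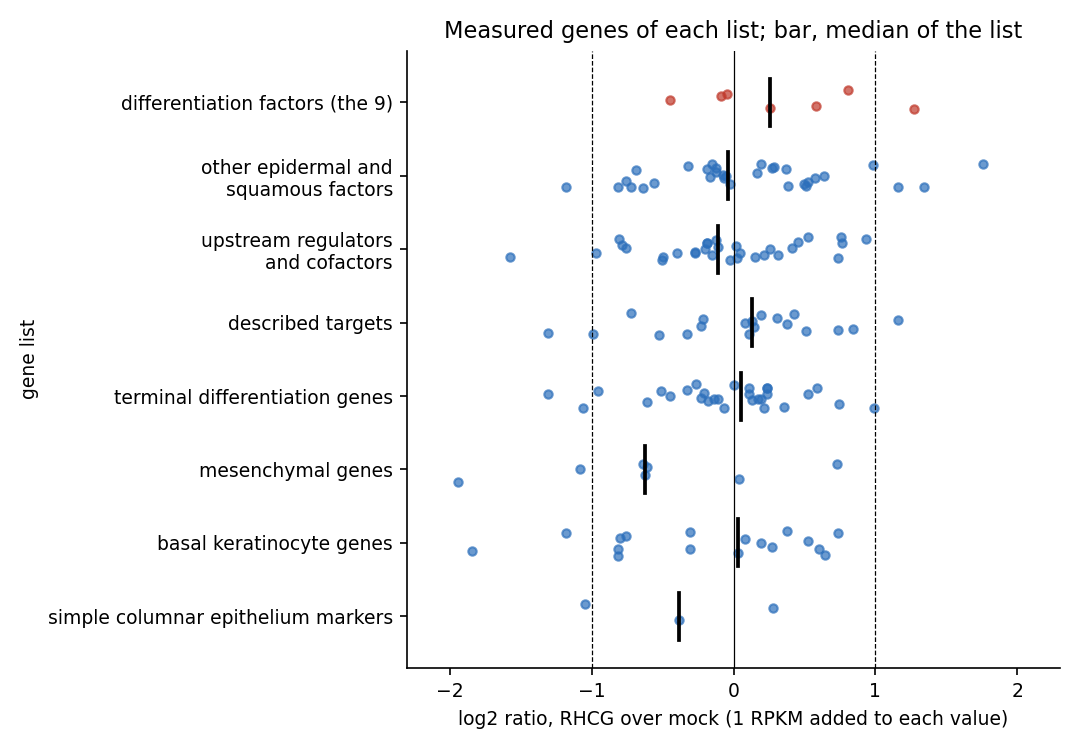
Log2 ratio of RHCG over mock, with 1 RPKM added, for each measured gene of 8 lists (points), with the list median as a bar and dashed lines at 1 and −1. RHCG, at 7.69, is beyond the axis but counts in the median of its list; the 9 factors have a median of 0.26 and the mesenchymal genes one of −0.62.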

How the data were processed

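The authors deposited 1 table per library, headed RPKM, in which each value was the log2 of an RPKM, never below 0. Base 2 was taken as known from an earlier report on these data. For single-exon small RNA genes, unlogged values times transcript length were set against whole multiples of 1 constant. The best constant between 30 and 80 was 45.3 in the RHCG and 52.8 in the mock library. With these constants 38.2% and 25.8% of values under 20 reads lay within 0.01 reads of a whole number. These constants gave the depths, and RPKM times depth times GENCODE release 29 exonic length gave approximate reads, since counts were not recovered. Genome build hg19 and bedtools 2.25.0 are named, per the submitters' processing notes; how reads were aligned and counted is not given in the sources used. Each table had 40448 rows; 112 carried a copy suffix and were summed by Entrez gene, and RefSeq (GRCh38.p14) gave symbols and gene order.

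Genes listed at 0 were set to 1 RPKM, and genes needed a mean of at least 1 RPKM and a value above 0 in at least 1 library. The members and lists were chosen with earlier results of these data known. Named were the 9 factors, RHCG, every called gene of each list or else its 2 most abundant, and the next neighbours of factors with a log2 ratio of at least 0.5 in size; other genes were named after their values were seen, and 1 gene that this rule names is not reported here. With 2 libraries, likeness of pattern between genes could not be measured. Intervals were Clopper-Pearson for ratios and exact Poisson for levels. Alternatives covered the pseudocount, the value for 0, the filter, repeated rows, 2 scalings, the fold and the neighbour shift. The analysis ran in Python 3.11.15 with pandas 2.3.3, numpy 2.4.6, scipy 1.17.1 and matplotlib 3.10.9.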

Additional observations from a re-analysis of the deposited data

How the results depend on the processing

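No paired analysis was possible because each group was 1 library, which also means that none could be dropped in turn. The 1 factor called higher became 2 (GRHL1 and EHF) under a 1.5-fold rule and 0 after subtraction of the neighbour shift, where GRHL1 stood at 0.88. The median of the measured factors, 0.26, was 0.42 when the least mean was raised to 5 RPKM, which drops GRHL3, and 0.095 after that subtraction. Of all genes, 2.74% were higher and 3.30% lower. These shares were 4.15% and 5.23% for a pseudocount of 0.1 RPKM, 5.34% and 7.81% where a listed 0 was taken as 0 RPKM, and 11.3% and 11.5% under the 1.5-fold rule, all of which loosen the rule by construction. They were 2.04% and 2.83% after subtraction of the neighbour shift, and the higher share was 3.30% for the raised mean. Dropping the filter changed nothing, because a listed 0 stands at 1 RPKM. Over these settings no measured factor changed its sign: GRHL1 ranged from 0.88 to 1.46, EHF from 0.80 to 0.97, KLF4 from 0.45 to 0.60 and GRHL2 from −0.59 to −0.45. Of 62 such values for single factors 56 moved by no more than counting error. This count, like the check of signs, includes settings that could not change a ratio. The filter, the value for 0, repeated rows and the fold left the ratio of every factor kept at its main value. All 6 values that moved did so under the neighbour shift, where GRHL3 alone of the measured factors did not move. Median-of-ratios and trimmed mean scaling shifted ratios by 0.0071 and 0.0086. Depth limits GRHL3 most, and counting intervals hold no spread between cultures.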

Other observations

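Genes around the 2 factors listed at 0 were measured in both libraries. TBCD, which overlaps ZNF750 in the annotation, was at 24.6 RPKM in the RHCG library and 38.1 RPKM in the mock library (log2 ratio −0.61), and 27 measured neighbours of ZNF750 had a median of −0.16. Beside PRDM1, PREP was at 10.7 RPKM in the RHCG library and 7.40 RPKM in the mock library (0.48), and ATG5 at 16.7 RPKM in the RHCG library and 12.9 RPKM in the mock library (0.35). Of the 50 neighbours of PRDM1, 34 lay above 0, and the median of the 50 was 0.16. Among them 2 were called higher, METTL24 (2.45) and CDK19 (2.24), and 0 lower.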
